A study of Mus musculus with 6 samples.

Results

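Naive CD8 T cells keep their resting, lymph node homing state under a small set of transcription factors, and 10 genes for such factors are described here: Tcf7, Lef1, Bach2, Foxo1, Foxo3, Foxp1, Id3, Myb, Elf4 and Zeb1. They were chosen with earlier results of these data known and then matched by symbol. Each symbol matched 1 of the 55450 genes in the deposited table, and all 10 were among the 13470 genes with enough counts to be tested. The series compares 3 CD103KO samples with 3 WT samples of CD8 T cells, sorted from mouse lymph nodes as negative for Ly6C and CXCR3. CD103KO stands for mice with a knockout of Itgae, the gene for the integrin chain CD103, and WT for C57BL/6 mice. No treatment or age is given in the labels. Whether the replicates are separate animals is not stated in the labels, so the p-values reflect only how far these samples spread, which may be technical.

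TCF-1 (the product of Tcf7) and LEF-1 are HMG-box proteins that open and maintain T cell chromatin, and both are known to decline when a CD8 T cell becomes an effector. FOXO1 and FOXO3 are forkhead factors that act in the nucleus when PI3K and AKT signalling is low. FOXO1 activates the genes of the homing receptors L-selectin and CCR7 and of the interleukin-7 receptor. FOXP1, BACH2 and ELF4 are known to hold T cells in quiescence, BACH2 by competing with AP-1 factors. ID3 binds E proteins and keeps them off DNA, MYB acts in thymocytes and in stem-like T cells, and ZEB1 is a zinc finger repressor.

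Total expected counts were 68292475 to 94347034 per library. Itgae was at 67.9, 67.9 and 61.1 CPM in the CD103KO libraries, against 491, 495 and 459.9 CPM in the WT libraries, where CPM (counts per 1e6 counts) use library sizes scaled for composition (TMM). It fell with a log2 fold change of -2.88 (SE 0.06). Xist was at 66.9 CPM in WT replicate 1 and 79.7 CPM in WT replicate 2, and both had 0 counts of Ddx3y, a Y-linked gene. The CD103KO libraries and WT replicate 3 had at most 2 counts of Xist and 47.8 to 56.2 CPM of Ddx3y. Results are therefore also given with a term for Xist reads, a fit in which WT replicate 3 is the one WT library matched to CD103KO. The CD8 T cell markers Cd8a, Cd8b1, Cd3d, Cd3e, Cd3g and Trac summed to 5512 to 5612 CPM in CD103KO and 5384 to 5603 CPM in WT. Red cell and platelet markers, nearly all haemoglobin, summed to 57.0 to 92.0 CPM in CD103KO and 32.6 to 49.2 CPM in WT, without overlap, and 0 of 4 tested passed (Hba-a1 log2 fold change 1.08, Hbb-bt 1.20). Their part in the other values was not tested. Myeloid and dendritic markers summed to 3.24 to 4.19 CPM in CD103KO and 2.89 to 5.34 CPM in WT, with Cd14 and Siglech at 0 counts and Lyz2 and Itgam detected. Stromal and endothelial markers summed to 127 to 167 CPM in CD103KO and 137 to 151 CPM in WT, nearly all of it Pecam1. Pecam1 averaged 146 CPM in CD103KO and 143 CPM in WT, and whether it came from such cells was not tested. Cdh5 averaged 0.217 CPM in CD103KO and 0.407 CPM in WT, and Col1a1 0.428 CPM and 0.293 CPM. Neither overlapped between groups (log2 fold change -0.91 for Cdh5 and 0.53 for Col1a1), neither passed, and Pdpn was at 0 counts. In a bulk sample, fewer cells of a type and less RNA per cell cannot be told apart.

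None of the 10 factor genes passed the test between CD103KO and WT. The test was edgeR's quasi-likelihood test with Benjamini-Hochberg adjustment over all 13470 genes, at an adjusted p of 0.05, and 0.223% of tested genes passed it. The adjusted p of the 10 genes lay between 0.310 for Id3 and 0.985 for Foxo3. At an unadjusted p under 0.05 there were 2 of 10, Id3 and Elf4, both higher in CD103KO. Of all tested genes, 8.73% lay under that p, 4.53% higher in CD103KO and 4.2% lower. The same pair were the members whose libraries did not overlap between the groups, against 14.2% of all tested genes (6.82% higher in CD103KO and 7.36% lower). Log2 fold changes were positive for 5 of the 10 and negative for 5, with a median of -0.00072, against -0.0025 for all tested genes. With the term for Xist reads, 7 of the 10 were positive and the median was 0.060, against 0.0025 for all tested genes. The 95% interval of the fold change, not adjusted for the number of genes, kept the difference from WT between -16.3% and 18.8% for 9 of the 10, and ran up to 58.0% for Id3. With DESeq2, Id3 passed (adjusted p = 0.00736) and the other 9 did not. That tool called 0.829% of the 15433 genes to which it gave an adjusted p.

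**Figure D1:**
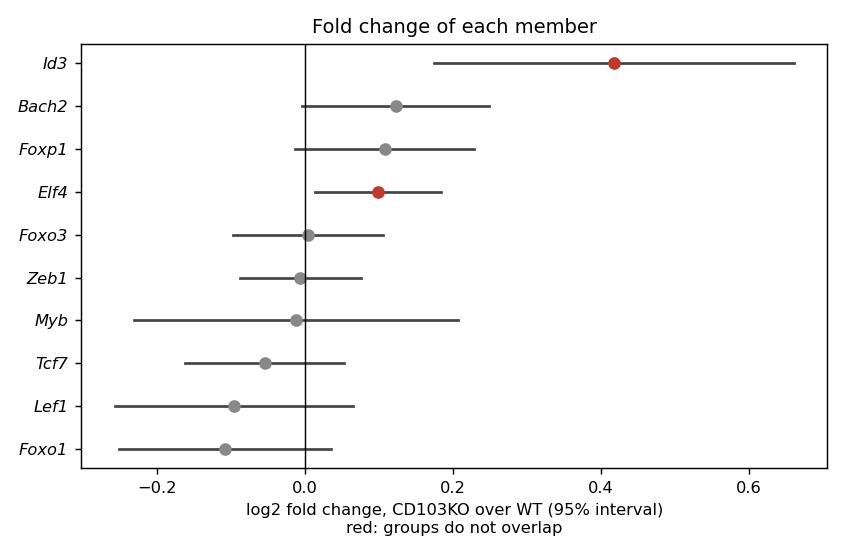
Log2 fold change of CD103KO over WT for each of the 10 genes (points, edgeR) with its 95% interval (lines). Id3 lies at 0.42 with an interval of 0.17 to 0.66, and the other 9 points lie between -0.11 and 0.12. Red points mark Id3 and Elf4, whose groups did not overlap.

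The level of the 10 genes spanned a wide range in these cells. Tcf7 led with 489 ± 18.3 CPM per kb of merged exons in CD103KO and 508 ± 24.8 in WT (SD, n = 3 each). Lef1 followed with 52.4 ± 2.93 CPM per kb in CD103KO and 56.0 ± 5.36 in WT. Elf4 and Foxo1 came next, and their neighbours differed by group: in CD103KO every Elf4 library lay above every Foxo1 library and overlapped those of Lef1, while in WT Elf4 and Foxo1 overlapped each other. Foxo1 averaged 43.2 ± 3.36 CPM per kb in CD103KO and 46.6 ± 2.69 in WT, and Elf4 averaged 49.8 ± 0.365 in CD103KO and 46.5 ± 1.40 in WT. Id3 followed, and Foxp1 and Foxo3 overlapped in WT but not in CD103KO. Bach2 and Zeb1 lay below them at 9.02 ± 0.487 and 6.48 ± 0.0962 CPM per kb in CD103KO, against 8.28 ± 0.476 and 6.51 ± 0.0309 in WT. Myb was the lowest, at 0.907 ± 0.0889 CPM per kb in CD103KO and 0.914 ± 0.0684 in WT. The order depends on the length assigned to each gene: with the longest transcript in place of merged exons, Lef1 reads 126 CPM per kb in CD103KO and Zeb1 11.5.

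**Figure D2:**
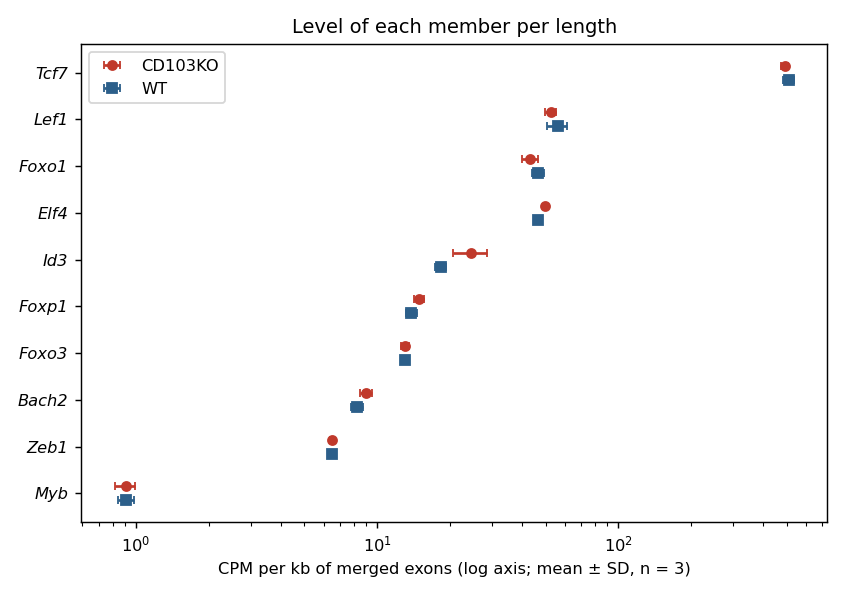
Mean level of each gene in CPM per kb of merged exons (log axis) with SD over 3 CD103KO (circles) and 3 WT libraries (squares). Tcf7 stands apart at 489 in CD103KO and 508 in WT, and Myb is lowest at 0.907 in CD103KO and 0.914 in WT.

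Tcf7 and Lef1, the HMG-box pair, did not pass, and their libraries overlapped. Tcf7 (chromosome 11, 52252371 to 52283014, GRCm38, minus strand) was at 1336, 1241 and 1276 CPM in CD103KO replicates 1, 2 and 3, against 1265, 1395 and 1339.5 CPM in the WT replicates. CD103KO replicates 1 and 3 lay among the WT values, and CD103KO replicate 2 lay below them. The log2 fold change of Tcf7 was -0.05 (SE 0.05, 95% interval -0.16 to 0.05, adjusted p = 0.776, edgeR). Tcf7 shares its chromosome with Itgae, at a gap of 20.8 Mb, and overlaps the antisense gene A630014C17Rik, which was at 3.83 CPM in CD103KO and 4.23 CPM in WT. Lef1 (chromosome 3, 131110471 to 131224356, plus strand) was at 470.3, 479.9 and 431 CPM in CD103KO, against 503, 533 and 441 CPM in WT. WT replicate 3, the WT library without Xist reads, was the lowest WT value and lay within the CD103KO range. The log2 fold change of Lef1 was -0.10 (SE 0.07, 95% interval -0.26 to 0.07, adjusted p = 0.734, edgeR), and it was 0.06 with the term for Xist reads, in the opposite direction. The ratio of Tcf7 to Lef1 CPM was 2.84, 2.59 and 2.96 in CD103KO, against 2.52, 2.62 and 3.04 in WT, with overlapping groups (log2 difference 0.04, exact two-sided permutation p = 0.9). Of the other TCF family genes, Tcf7l1 and Tcf7l2 reached 0.0516% and 0.0158% of the family's summed CPM per kb in CD103KO, against 0.0497% and 0.0127% in WT, so Tcf7 and Lef1 made up nearly all of it in both groups.

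Foxo1 and Foxo3, the forkhead factors under AKT control, did not pass either. Foxo1 (chromosome 3, 52268336 to 52353221, plus strand) was at 408, 357 and 358 CPM in CD103KO, against 379, 426 and 406 CPM in WT. CD103KO replicates 2 and 3 lay below every WT library, and CD103KO replicate 1 lay among them. The log2 fold change of Foxo1 was -0.11 (SE 0.06, 95% interval -0.25 to 0.04, adjusted p = 0.679, edgeR), and with single libraries left out it lay between -0.17 (without CD103KO replicate 1, adjusted p = 0.233, edgeR) and -0.07 (without WT replicate 2, adjusted p = 0.902, edgeR). Foxo3 (chromosome 10, 42181841 to 42276755, minus strand) was at 95.1, 102 and 99.1 CPM in CD103KO, against 102, 98.0 and 95.1 CPM in WT. The Foxo3 values of the groups covered nearly the same range, with a log2 fold change of 0.0046 (SE 0.04, 95% interval -0.10 to 0.11, adjusted p = 0.985, edgeR). The ratio of Foxo1 to Foxo3 CPM was 4.29, 3.49 and 3.62 in CD103KO, against 3.70, 4.35 and 4.27 in WT (log2 difference -0.11, exact two-sided permutation p = 0.3). Foxo4, another FOXO gene, was at 7.89 ± 0.313 CPM per kb in CD103KO and 7.48 ± 0.714 in WT, and Foxo6 had at most 1 count in any library.

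Foxp1, a forkhead factor that restrains interleukin-7 receptor expression, and Bach2, a bZIP repressor, had closely matching profiles over the libraries. Foxp1 (chromosome 6, 98925338 to 99522721, minus strand) was at 197, 218 and 202 CPM in CD103KO, against 188, 202 and 182 CPM in WT. Bach2 (chromosome 4, 32238804 to 32586108, plus strand) was at 87.4, 95.2 and 86.3 CPM in CD103KO, against 81.3, 87.5 and 78.2 CPM in WT. In each gene, CD103KO replicate 2 was the highest library and WT replicate 3 the lowest, and WT replicate 2 lay within the CD103KO range. The log2 fold change was 0.11 (SE 0.05, 95% interval -0.01 to 0.23, adjusted p = 0.620, edgeR) for Foxp1. For Bach2 it was 0.12 (SE 0.06, 95% interval -0.00 to 0.25, adjusted p = 0.582, edgeR). With the term for Xist reads the log2 fold changes were 0.18 for Foxp1 and 0.20 for Bach2. Without CD103KO replicate 2 they were 0.06 for Foxp1 and 0.07 for Bach2 (adjusted p = 0.982 for each, edgeR). After each gene's log2 CPM was centred on its own mean, the profiles of these 2 genes differed by a root mean square of 0.016 over the 6 libraries, the smallest difference of any pair among the 10. Such likeness was not particular to the pair. Predicted genes and pseudogenes aside, 114 genes with a mean of at least 10 CPM lay within 0.05 of Bach2. Within 0.05 of Foxp1 there were 182. Foxp1 was the only member with expected counts that were not whole, in all 6 libraries. It overlaps Gm20696 on the same strand, which was at 0.223 CPM in CD103KO and 0.133 CPM in WT.

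Foxp1 and Bach2 are also used by B cells, whose markers summed to more in each CD103KO library than in any WT library. The 7 B cell markers Cd79a, Cd79b, Ms4a1, Fcer2a, Pax5, Ebf1 and Blk summed to 30.5 to 35.4 CPM in CD103KO, against 25.1 to 28.6 CPM in WT. Most of that sum was Cd79b, at 25.5 ± 0.754 CPM in CD103KO and 25.3 ± 2.10 CPM in WT (SD, n = 3 each), with a log2 fold change of 0.01. The others were at a few CPM or less, with larger fold changes. All 7 had positive log2 fold changes, and none was at 0. In edgeR 3 of them passed, with log2 fold changes of 1.74 for Cd79a, 2.28 for Ms4a1 and 2.58 for Fcer2a. The mean difference was 14.9 CPM for Foxp1 and 7.33 CPM for Bach2. The part of these markers in the values of Foxp1 and Bach2 was not tested.

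Id3 had the largest fold change of the 10 in size, and its groups did not overlap. Id3 (chromosome 4, 136143497 to 136145755, plus strand) was at 36.4, 45.3 and 50.3 CPM in CD103KO, against 34.4, 31.1 and 33.4 CPM in WT. CD103KO replicate 1 lay just above the highest WT library, and the spread among CD103KO libraries (SD 7.07 CPM) was wider than among WT libraries (SD 1.71 CPM). The log2 fold change of Id3 was 0.42 (SE 0.11, 95% interval 0.17 to 0.66, unadjusted p = 0.00378, adjusted p = 0.310, edgeR). It passed with DESeq2, with no filter on low counts (adjusted p = 0.0288, edgeR) and without CD103KO replicate 1 (log2 fold change 0.54, adjusted p = 0.0262, edgeR). Over all the alternatives its log2 fold change stayed positive, between 0.31 and 0.54, with adjusted p between 0.00736 and 0.968. With the term for Xist reads it was 0.40 (adjusted p = 0.649, edgeR).

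Id2, the other abundant inhibitor of E proteins and one that rises in effector cells, had a log2 fold change of opposite sign. Id2 was at 68.5, 52.7 and 50.8 CPM in CD103KO, against 76.3, 72.3 and 62.9 CPM in WT, and the groups overlapped through CD103KO replicate 1. Its log2 fold change was -0.30 (SE 0.11, 95% interval -0.56 to -0.04, adjusted p = 0.497, edgeR). The ratio of Id3 to Id2 CPM was 0.531, 0.859 and 0.989 in CD103KO, against 0.451, 0.429 and 0.530 in WT. CD103KO replicate 1 and WT replicate 3 were nearly equal in this ratio, and the groups only just did not overlap. The difference was 0.71 on the log2 scale, with an exact two-sided permutation p of 0.1, the smallest that 3 against 3 libraries can give, and 0.4 after adjustment over the 4 ratios computed. The 4 Id genes summed to 48.6, 47.0 and 49.2 CPM per kb in CD103KO, against 50.6, 47.2 and 44.6 CPM per kb in WT, so the sums overlapped. Id3 supplied 50.9 ± 8.05% of that sum in CD103KO and 38.8 ± 2.64% in WT (SD, n = 3 each). Id4 had 0 counts, and Id1 was at 0.197 ± 0.0439 CPM per kb in CD103KO and 0.153 ± 0.0620 in WT.

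**Figure D3:**
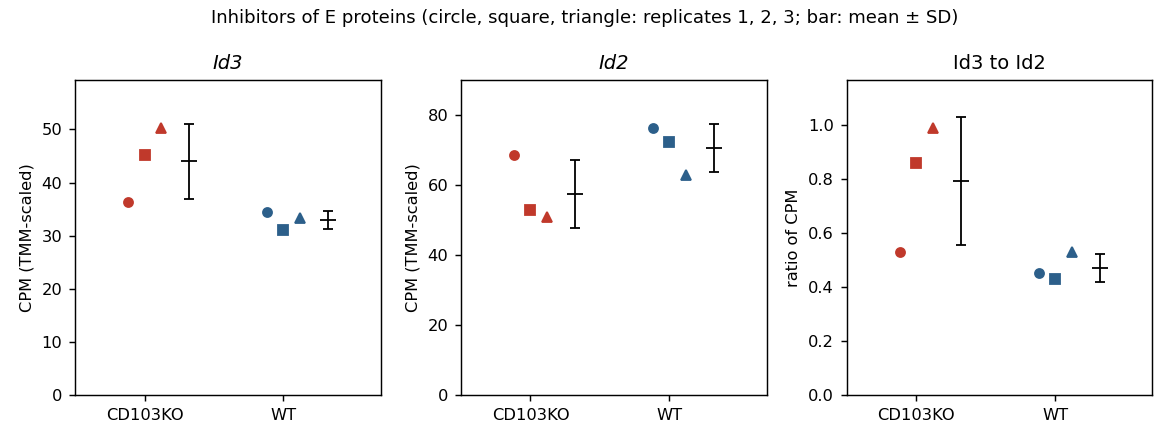
CPM of Id3 and Id2 and the ratio of Id3 to Id2 in each library (symbols are replicates; bars are mean ± SD). CD103KO replicates 2 and 3 reach ratios of 0.859 and 0.989, while CD103KO replicate 1 (0.531) lies beside WT replicate 3 (0.530).

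The E proteins that ID3 and ID2 bind did not pass. Tcf3, which encodes E2A, was at 116, 119.9 and 113 CPM in CD103KO, against 110.4, 109.8 and 112 CPM in WT, without overlap (log2 fold change 0.07, adjusted p = 0.656, edgeR). For Tcf12, which encodes HEB, the log2 fold change was 0.02 (adjusted p = 0.903, edgeR). Marker lists of other states in which Id3 or Id2 is known to differ gave the following. Thymocyte markers summed to 36.3 to 44.4 CPM in CD103KO and 36.3 to 41.0 CPM in WT, mostly Cd1d1 (28.8 and 25.9 CPM). Dntt made up most of the rest (11.7 and 12.3 CPM), and Rag1, Rag2, Ptcra and Arpp21 were too low to test. Memory-like CD8 T cell markers summed to 643 to 672 CPM in CD103KO and 554 to 635 CPM in WT, without overlap. Most of that sum was Il2rb (291 CPM in CD103KO, 251 CPM in WT) and Nkg7 (296 and 284 CPM). Of the 8 fold changes 6 were positive, and 0 of 8 passed. Ly6c2 and Ly6c1 did not overlap between groups (log2 fold change 0.65 and 1.67), and Cxcr3 did (0.55). Of all tested genes, 6.82% lay higher in CD103KO without overlap. Ly6c1 had only 12 to 82 counts a library. The cells were sorted as negative for Ly6C and CXCR3, so these genes belong to the sort gate itself. The 2 negative fold changes of the 8 were those of Gzmm (-0.02) and Ccl5 (-1.36). Ccl5 was at 34.9 CPM in WT replicate 3, against 4.78 and 2.91 CPM in WT replicates 1 and 2. NK cell markers summed to 1.43 to 1.82 CPM in CD103KO and 1.75 to 2.04 CPM in WT. Of these, 2 could be tested, both with negative fold changes, and 0 passed. Markers of CD4 and regulatory T cells summed to 6.83 to 7.91 CPM in CD103KO and 5.47 to 7.56 CPM in WT. Of the 5 fold changes 4 were positive, and 0 passed. The part of all these markers in the Id3 and Id2 values was not tested.

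Elf4, an ETS factor known to restrain CD8 T cell proliferation, had the tightest CD103KO values of the 10 genes relative to their mean (coefficient of variation 0.734% in CD103KO and 3.02% in WT). Elf4 (chromosome X, 48411046 to 48463132, minus strand) was at 305, 309 and 304 CPM in CD103KO, against 276, 293 and 287 CPM in WT. Every CD103KO library lay above every WT library. The log2 fold change of Elf4 was 0.10 (SE 0.04, 95% interval 0.01 to 0.18, unadjusted p = 0.0270, adjusted p = 0.497, edgeR), and it was 0.09 with the term for Xist reads (adjusted p = 0.744, edgeR). WT replicate 3, without Xist reads, lay between WT replicates 1 and 2 for this X-linked gene. Elf1 and Elf2, related ETS factors, had negative log2 fold changes of -0.06 and -0.10 (adjusted p = 0.694 and 0.497, edgeR), and neither overlapped between groups. Elf2 averaged 86.7 ± 1.44 CPM in CD103KO and 93.1 ± 2.90 CPM in WT (SD, n = 3 each). The ELF genes together summed to 121 ± 1.34 CPM per kb in CD103KO and 121 ± 2.06 in WT, of which Elf4 took 41.2 ± 0.763% in CD103KO and 38.5 ± 0.619% in WT.

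Myb and Zeb1 had the fold changes nearest to 0 beside Foxo3. Myb (chromosome 10, 21124935 to 21160984, minus strand) was at 8.87, 7.28 and 8.15 CPM in CD103KO, against 7.49, 8.69 and 8.30 CPM in WT. Its groups overlapped, with a log2 fold change of -0.01 (SE 0.10, 95% interval -0.23 to 0.21, adjusted p = 0.984, edgeR), the widest interval after that of Id3. Zeb1 (chromosome 18, 5591860 to 5775467, plus strand) was at 67.5, 66.6 and 65.5 CPM in CD103KO, against 67.1, 66.9 and 66.5 CPM in WT. The Zeb1 libraries lay within a narrow band, and the log2 fold change was -0.01 (SE 0.04, 95% interval -0.09 to 0.08, adjusted p = 0.976, edgeR). Zeb2, the paralog that rises in terminal effector cells, supplied 0.244 ± 0.0490% of the ZEB sum in CPM per kb in CD103KO and 0.205 ± 0.0533% in WT, and the ratio of Zeb1 to Zeb2 did not separate the groups (log2 difference -0.26, exact two-sided permutation p = 0.4).

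**Figure D4:**
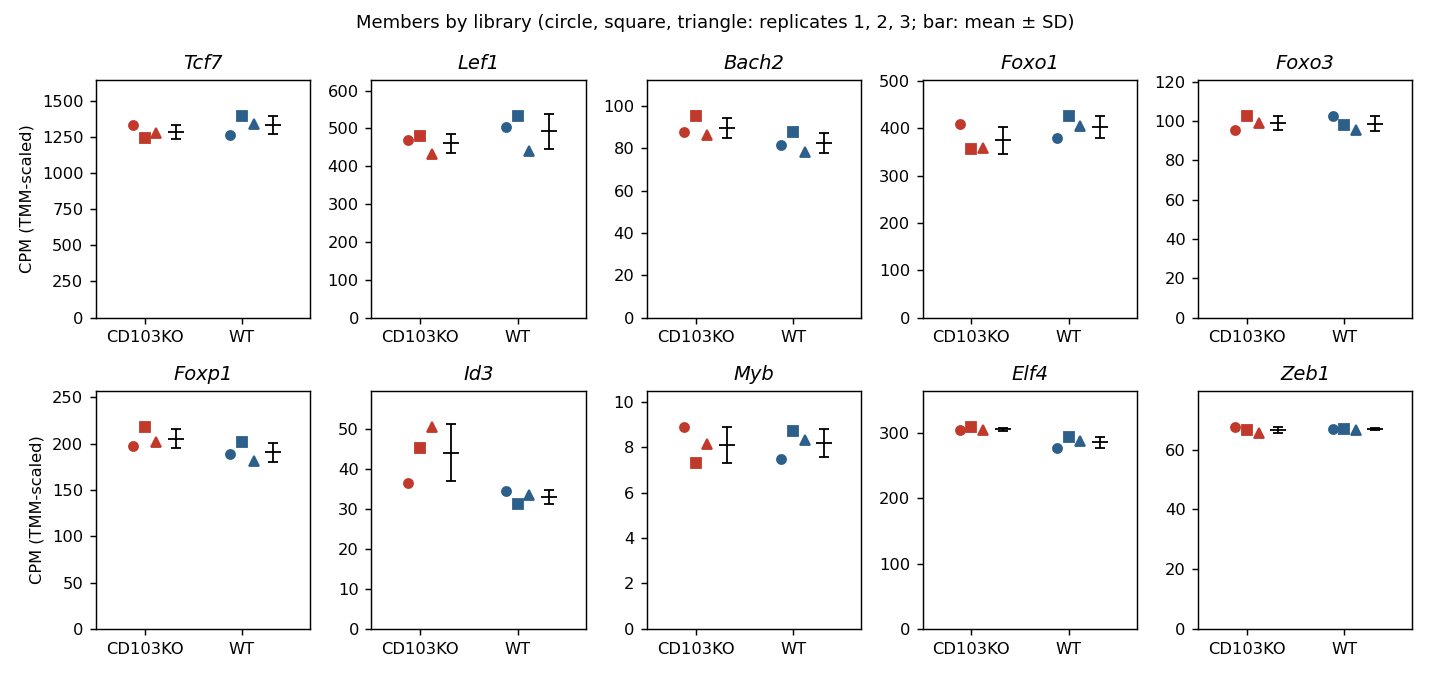
CPM of the 10 genes in each CD103KO and WT library, each panel from 0, with mean ± SD bars. CD103KO libraries lie above all WT libraries for Id3 and Elf4, and the groups overlap for the other 8 genes.

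RefSeq promoter windows on GRCm38.p6 (250 bases before to 50 after a start) were given for 9 of the 10 genes, as 16 windows. They were searched on both strands for the ETS motif CCGGAAG, the FOXO motif GTAAACA, the TCF motif CTTTGAA or CTTTGAT, and the motif CAGGTG that ZEB1 and E proteins share. The ETS motif was found in 2 of the 16 windows, in Bach2 and Tcf7, and in 8.86% of all 32851 windows. The FOXO motif was found in 2 windows, in Myb and Tcf7, and in 3.65% of all. The TCF motif was found in 1 window, in Foxp1, and in 8.65% of all, and CAGGTG in 3 windows, in Foxp1, Lef1 and Tcf7, and in 20.2% of all. These are descriptions of letters in a window and not of binding. The 250 bases before a start are shown for Bach2, whose profile ran with that of Foxp1, and for Elf4, an ETS factor whose groups did not overlap. The Bach2 window lies well inside the annotated gene, so it precedes an internal start and not the outermost one. Capitals mark a match to the 4 motifs. Bach2 (chr4:32417185-32417434, plus strand) holds 1 ETS match, and the outer of the starts of Elf4 (chrX:48463133-48463382, minus strand) holds none.
Bach2: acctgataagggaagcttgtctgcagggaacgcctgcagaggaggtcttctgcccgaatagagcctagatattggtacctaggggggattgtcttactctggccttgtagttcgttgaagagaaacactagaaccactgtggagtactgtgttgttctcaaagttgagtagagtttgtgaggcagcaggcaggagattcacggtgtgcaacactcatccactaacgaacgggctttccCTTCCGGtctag
Elf4: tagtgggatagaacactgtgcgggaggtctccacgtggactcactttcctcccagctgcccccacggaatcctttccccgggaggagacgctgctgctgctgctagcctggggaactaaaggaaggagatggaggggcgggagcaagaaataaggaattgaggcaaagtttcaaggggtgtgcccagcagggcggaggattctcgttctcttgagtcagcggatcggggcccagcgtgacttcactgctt

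Genes regulated by FOXO factors lay mostly below WT, although none of the 16 passed. Of the 16, 14 had negative log2 fold changes, against 51.0% of all tested genes, and their median was -0.12, against -0.0025 for all tested genes. The list was written with earlier results of these data known, and it holds genes that are already known to lie lower here, such as Ccr7. Ccr7, which guides cells into lymph nodes, averaged 443 ± 6.37 CPM in CD103KO and 486 ± 5.96 CPM in WT (SD, n = 3 each). Its groups did not overlap (log2 fold change -0.14, SE 0.03, adjusted p = 0.303, edgeR). Il7r, the interleukin-7 receptor chain, was at 283, 275 and 285 CPM in CD103KO, against 307, 312 and 294 CPM in WT, also without overlap (log2 fold change -0.11, SE 0.04, adjusted p = 0.455, edgeR). Cdkn1b and Bcl6 were the other 2 genes of the list that did not overlap, all 4 lower in CD103KO, where 7.36% of all tested genes lay lower without overlap. The extremes were Gadd45a (log2 fold change -0.21) and Sesn3, a stress-induced sestrin (0.10), neither passing. With the term for Xist reads, 10 of 16 were negative and the median was -0.05. With chromosome 11, which carries Itgae, left out, 14 genes of the list remained. Of these, 12 were negative, against 52.0% of all genes tested in that fit, and the median was -0.12. The upstream genes of PI3K and AKT control, 11 in all, had a median of -0.02 (0.01 with the term for Xist reads), and none passed. Their extremes were Rictor, a subunit of mTOR complex 2 that helps activate AKT (log2 fold change -0.13, adjusted p = 0.541, edgeR), and Pik3r1 (0.07). Inpp5d, a phosphatase that opposes PI3K, had the next smallest p in that list (log2 fold change -0.07, adjusted p = 0.716, edgeR).

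Targets of TCF-1 and LEF-1 gave a mixed picture. Of 8 genes, 5 could be tested, 2 with positive and 3 with negative fold changes (3 and 2 with the term for Xist reads), and none passed. Slamf6, a surface receptor of stem-like T cells, was at 101, 109.9 and 109.7 CPM in CD103KO, against 100.5, 97.3 and 90.9 CPM in WT. CD103KO replicate 1 lay just above the highest WT library (log2 fold change 0.15, SE 0.05, adjusted p = 0.449, edgeR). Cxcr5, a chemokine receptor, was at 4.66 ± 0.823 CPM in CD103KO and 3.64 ± 1.15 CPM in WT (SD, n = 3 each), with overlap. Myc, a growth regulator, had the lowest log2 fold change of those at 1 CPM or more (-0.09), and Axin2, a feedback inhibitor of Wnt signalling, was at -0.03.

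Partners and paralogs of the 10 factors did not pass. Of 18 tested partners and cofactors, 12 had positive fold changes, with a median of 0.02. Maff, a small MAF protein of the kind that pairs with BACH2, was at 1.08, 0.675 and 0.701 CPM in CD103KO, against 1.23, 1.41 and 1.20 CPM in WT, without overlap (log2 fold change -0.64, SE 0.23, adjusted p = 0.480, edgeR). Aes, a short relative of the Groucho corepressors that bind TCF proteins, averaged 521 ± 7.44 CPM in CD103KO and 552 ± 12.6 CPM in WT (log2 fold change -0.08, adjusted p = 0.561, edgeR). For Ctnnb1, which encodes beta-catenin, the value was 0.09 (adjusted p = 0.777, edgeR), and the highest of the list at 1 CPM or more was Tcf4, an E protein gene (0.13). Of 13 tested paralogs, 8 had positive fold changes, with a median of 0.09. With the term for Xist reads 6 of 13 were positive and the median was -0.05, and among the 9 with at least 1 CPM in 3 libraries it was -0.0052. Mybl2, a MYB relative of dividing cells, was the highest at 1 CPM or more (0.17). Foxp4 averaged 50.2 ± 2.43 CPM in CD103KO and 47.2 ± 4.68 CPM in WT (log2 fold change 0.09, adjusted p = 0.762, edgeR).

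Regulators of the effector programme, which several of the 10 factors are known to hold down, did not pass, with a median of -0.02 over 11 genes. That median had no steady sign: it was -0.08 with the term for Xist reads, 0.03 with limma-voom, 0.02 with the replicate block and 0.05 without CD103KO replicate 2. Batf, an AP-1 factor, was at 25.5, 26.1 and 26.7 CPM in CD103KO, against 29.0, 28.0 and 29.8 CPM in WT, without overlap (log2 fold change -0.15, SE 0.06, adjusted p = 0.497, edgeR). Tox, a factor of chronically stimulated T cells, had the highest log2 fold change of those at 1 CPM or more (0.11, adjusted p = 0.577, edgeR). Prdm1, which encodes BLIMP-1 and is repressed by BACH2 and TCF-1, was at -0.02 (SE 0.29) with overlapping groups. Of 10 other transcription factors of naive T cells, 9 had negative fold changes, against 51.0% of all tested genes. Their median was -0.07, against -0.0025 for all tested genes. The list was written with earlier results of these data known. Klf2, a factor of quiescence and homing that FOXO1 activates, is in this list and also among the FOXO target genes above. It was at 317, 324 and 301 CPM in CD103KO, against 370.4, 348 and 323 CPM in WT. Only CD103KO replicate 2 lay above the lowest WT library (log2 fold change -0.15, SE 0.05, adjusted p = 0.497, edgeR). Bcl11b, a T lineage factor, was at 356, 287 and 287 CPM in CD103KO, against 304, 376 and 367 CPM in WT, and as with Foxo1 it was CD103KO replicate 1 that lay among the WT values. Runx1, another lineage factor, had the smallest p after Klf2 of that list (log2 fold change -0.14, adjusted p = 0.644, edgeR), and Ets1 was the one positive gene (0.02). With the term for Xist reads, 7 of the 10 were negative and the median was -0.04.

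**Figure D5:**
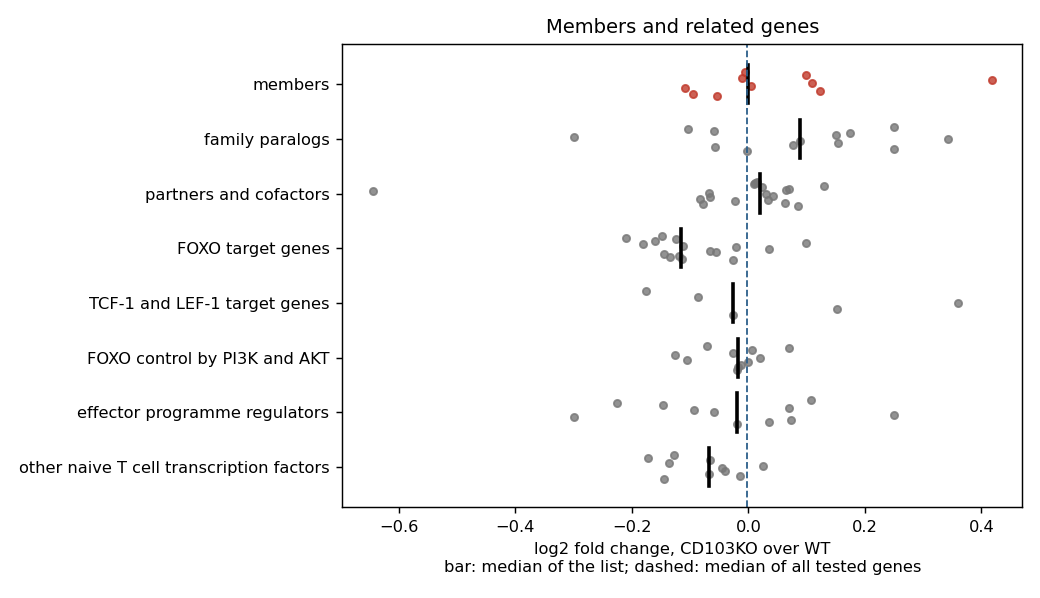
Log2 fold change of CD103KO over WT for the 10 genes (red) and the tested genes of 7 related lists (grey), with the median of each list (bar) and of all tested genes (dashed). The FOXO target genes have the lowest median (-0.12), and the 10 factor genes have a median of -0.00072.

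Genes with the library profile most like each factor were taken from those with a mean of at least 10 CPM, by the root mean square difference of centred log2 CPM over the 6 libraries. For Lef1 the nearest were Usp6nl (0.019) and Parp2 (0.031), for Foxo3 Bmi1 and Nob1 (0.011), for Foxp1 Cdk12 (0.013) and Tnrc6a (0.014), and for Myb Qpctl (0.025) and Adgrg5 (0.026). For Tcf7 the nearest were Vps18 (0.015) and Satb1 (0.016), a chromatin organiser of T cells. For Foxo1 they were Gne (0.017) and Eral1 (0.018), and for Bach2 they were Il10ra (0.012) and Foxp1. For Elf4 the nearest was Hadh (0.010). For Id3 they were Phka2 (0.049) and Lgals1 (0.073). The measure is not scaled for how far a gene varies, so its size cannot be compared between factors: Id3 varied by 0.249 about its own mean, and Zeb1 by 0.0133. Zeb1 lay nearest to Ercc3 (0.0028) and Ppib (0.0075). All these values share library depth and scaling, and the likeness says nothing of shared function.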

How the data were processed

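The authors deposited 1 table of expected counts, estimates per gene and library that are not normalized. The submitters' processing notes name RSEM, STAR 2.7.0f, cutadapt 1.18 and bcl2fastq 2.20, and the builds mm10 and GRCm38. No RSEM version, annotation release or strand setting is given in the sources used. Rounding to whole numbers altered 6.48% of values. All 55450 identifiers matched GENCODE M21 (GRCm38), which gave positions and lengths. No library pair of a group was a duplicate (chi-square 12.6 to 26.3 per degree of freedom).

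CD103KO was compared with WT by edgeR 4.0.16 in R 4.3.3 (filterByExpr, minimum count 10; TMM; group alone), checked on simulated counts. CPM use TMM-scaled library sizes. The SE is the log2 fold change divided by the square root of F. Ratios used exact permutation tests (SciPy 1.17.1). Plots used matplotlib 3.10.9. Libraries of 68292475 to 94347034 counts make 1 count 0.0104 to 0.0147 CPM. The members and gene lists were chosen with earlier results of these data known. Named were the 10 members, Itgae, Xist and Ddx3y, the called genes of each list or else the 2 of smallest p, list extremes at 1 CPM or more, and the 2 genes of nearest profile; 1 such gene and 1 B cell marker are not reported here. Other list genes (Elf1, Foxp4, Foxo4, Foxo6, Tcf3, Tcf12, Ctnnb1, Axin2, Id1, Id4, Zeb2, Tcf7l1, Tcf7l2, Cdkn1b, Bcl6, Prdm1, overlapping genes) were named after their values were seen. Alternatives were RLE and upper-quartile factors, other filters, DESeq2 1.42.0, limma-voom (limma 3.58.1), unrounded counts, a stricter threshold, the replicate number as a block, a term for Xist reads, libraries without them, chromosome 11 left out and each library left out.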

Additional observations from a re-analysis of the deposited data

How the results depend on the processing

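The 0 calls among the 10 factor genes became 1 with no filter, 1 with DESeq2 and 0 to 1 with single libraries left out, the call being Id3 in each case (without CD103KO replicate 1), and were 0 under the other alternatives. The 0 calls among related genes stayed 0 under all alternatives run. Over the whole table the 30 calls became 112 with no filter, 128 with DESeq2, 15 with the term for Xist reads, 13 with only the libraries without them, 7 without chromosome 11 and 19 at an adjusted p of 0.01. They were 19 to 59 with single libraries left out: 59 and 19 when CD103KO replicate 1 or 2 was dropped, in that order, and 52 when WT replicate 3 was. The 2 genes whose groups did not overlap became 2 to 4, with 4 without WT replicate 2.

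Lef1, at -0.096, turned to 0.064 with the term for Xist reads and to 0.064 with only the libraries without them; with single libraries left out it lay between -0.17 and -0.037, and Tcf7 between -0.091 and -0.023. Genes nearer 0 also turned: Foxo3 (-0.0028 with upper-quartile factors, -0.024 to 0.033 with single libraries left out), Myb (-0.082 to 0.056) and Zeb1 (0.0015 with the Xist term, 0.0020 without Xist libraries, -0.017 to 0.0024 with single libraries left out). The difference in the ratio of Tcf7 to Lef1 ran from -0.016 to 0.12. The cause was not tested. The labels do not say whether the replicate numbers pair the samples. Correlations of same-numbered deviations were -0.20, -0.0053 and -0.030, which cannot decide it with 3 libraries a group. With the replicate number as a block, 24 genes and 0 of the 10 were called. Myb had the fewest counts of the 10 genes, at 496 to 832 a library.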
